A study of Drosophila melanogaster with 5 samples.

Results

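Giant proteins are those with very long coding sequences (CDSs), here more than 1500 aa. They were taken from the annotated CDSs measured by Poly-Ribo-Seq, which sequences ribosome footprints from polysomes, in Drosophila S2 cells. A member was the longest distinct CDS of a gene, provided that it passed 1500 codons without the stop. This rule, which used no measured value, kept 627 of 13967 genes. Of the 21870 distinct CDSs in the table, 1820 passed the length limit, because many of these genes have several giant isoforms. RPKM values were given for 621 members and these carry every result. The other 6 (kl-2, kl-3, kl-5, CG17514, CG17374 and Set1) lie on heterochromatic scaffolds and are listed without values. The median member had 1984 aa and 10 coding exons, against 397 aa and 3 exons in the 12427 measured genes of over 100 and up to 1500 aa, which are called other genes here.

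S2 is an embryo-derived Drosophila line that grows in Schneider's medium with serum, and it resembles haemocytes, the blood cells of the fly. All 5 samples came from this 1 line, without any genotype or treatment that differed between them. Cycloheximide, which holds ribosomes on the mRNA, was present during harvest and lysis. Footprints of 28 to 34 nt were sequenced from small polysomes (2 to 6 ribosomes), from large polysomes (7 ribosomes or more), from all polysomes after rRNA depletion, and from a deeper repeat of the small fraction, called the extensive small polysomes. Total cytoplasmic poly(A) mRNA gave the transcript levels in 1 column, which appears to pool the study's replicates of mRNA, since its scaling total is close to the sum of theirs, and values per replicate were not used here. The large and all polysomes have 1 library each, so no test between fractions was run. Differences are set beside the spread between the 2 small polysome libraries, which the paper describes as independent experiments. Intervals for single genes cover counting error only.

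A giant protein needs a long stretch of coding sequence to be read by each ribosome, and a long mRNA has room for many ribosomes at the same time. Proteins of this size include molecular motors, spectrins and other linkers of the cytoskeleton, ubiquitin ligases, chromatin remodellers, nuclear pore proteins, laminins and cell-surface receptors. Many giants of the fly are best known from muscle, neurons or cilia, which an S2 culture lacks.

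The RPKM values were scaled to 2625000 to 9160000 reads per library. Reads recovered from the RPKM steps were whole for 100% of CDSs in every library, within 0.01 of a read. Giants made up 20.1% of the length of all longest CDSs. They held 10.7% of the mRNA reads on these CDSs, and 11.9% and 9.31% of the footprints in the initial and extensive small polysomes, but 21.3% in large and 19.95% in all polysomes. Of the 8 haemocyte markers measured, 7 reached 1 mRNA RPKM, with a summed level of 619 RPKM. The giant peroxidasin Pxn led them at 327 RPKM, while the clotting protein Hml, itself a giant, had 1 mRNA read. He, from 3 mRNA reads, and Cg25C only just reached the level, at 1.40 and 1.07 RPKM. NimC1 was also planned as a marker but was not found under that symbol. The 5 neuronal markers summed to 1.69 RPKM with 3 at 0, the 5 muscle markers to 4.41 RPKM with none at 0, and the 4 fat body markers were all at 0. The 4 germline markers summed to 26.7 RPKM, of which bam gave 26.2.

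Giant transcripts were present in most cases but were rarely abundant. Of the 621 members, 422 (68.0%, 95% Wilson interval 64.2 to 71.5) had an mRNA level of at least 1 RPKM, while 92 had no mRNA read and 43 of these had no footprint in any library either. The median over all members was 11.01 RPKM, with quartiles of 0.139 and 24.97. Genes of over 1000 and up to 1500 aa reached 1 RPKM in a similar share, 67.6%. Among the expressed members the median was 18.9 RPKM, below the 26.0 RPKM of expressed other genes. An mRNA level of 100 RPKM was reached by 14 giants, or 2.25%, against 2.98% of genes of over 1000 and up to 1500 aa and 7.33% of all genes.

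The 10 giants of highest mRNA level were matrix, cytoskeletal and biosynthetic proteins and an RNA-binding protein. The heavy chain of non-muscle myosin II, zip, stood at 592 RPKM of mRNA. Its footprints were at 65.7 RPKM in small, 86.9 in extensive small, 264 in large and 277 in all polysomes, so that all 4 lay below its mRNA level. Pxn, which crosslinks the basement membrane, differed from zip in the large and all polysomes. Its footprints reached 765 RPKM in large and 702 in all polysomes against 327 RPKM of mRNA, while both small libraries, at 203 and 260, lay below the mRNA as in zip. The laminin chains, which assemble into 1 heterotrimer, followed. The alpha chain LanA had 295 RPKM of mRNA and 519 in all polysomes, the beta chain LanB1 had 203 and 284, and the gamma chain LanB2 had 148 and 193. LanA thus had the most footprints per length of the 3 chains. The alternative alpha chain wb was nearly silent at 0.108 RPKM of mRNA. CG3523, annotated as the fatty acid synthase FASN1 by RefSeq, had 258 RPKM of mRNA and 292 in all polysomes. The La-related RNA-binding protein larp had 199 and 306, and Tig, a ligand of integrins, had 149 and 153. beta-Spec had 144 RPKM of mRNA and 170 in all polysomes. Its partner alpha-Spec had 113 and 183, so in all polysomes the 2 subunits of the spectrin tetramer had closer densities than in mRNA, while in large polysomes alpha-Spec had 258 and beta-Spec 217 RPKM. The remaining member of the 10, r, makes pyrimidines and is described below for its low translation.

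**Figure D1:**
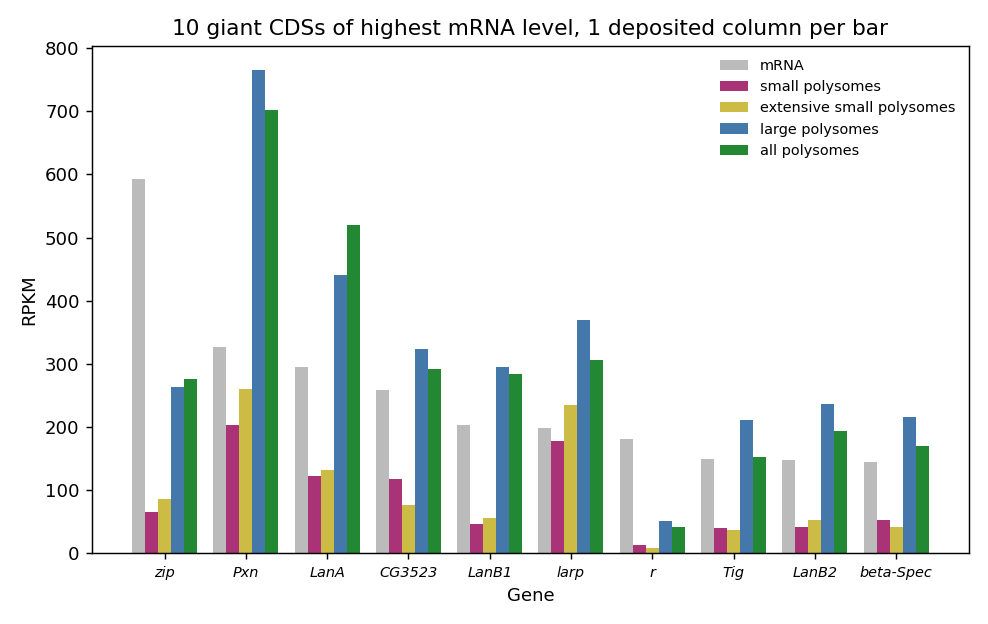
RPKM (y axis) of the 10 giant CDSs of highest mRNA level (x axis) in total mRNA and in the 4 footprint libraries. Each bar is 1 deposited column, that of mRNA apparently pooled from replicates, so there are no error bars. zip has the tallest mRNA bar at 592 RPKM with all footprint bars below it, whereas Pxn reaches 765 RPKM in large polysomes, and the large polysome bar exceeds both small polysome bars in all 10 genes.

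A CDS counted as translated in a library when its density passed the study's limit of just under 12 RPKM, with a footprint coverage of 0.57 or more and a minimum of 5 reads. By this rule 205 giants were translated in the small polysomes (33.0%; 29.3% of all 13842 measured genes), 225 in large polysomes (36.2%; 23.1% of all genes), 349 in all polysomes (56.2%; 38.3%) and 241 in the extensive small polysomes (38.8%; 35.7%). Among genes with at least 1 RPKM of mRNA the order of giants and all genes was the reverse in both small libraries. The shares were then 48.6% of giants and 55.9% of all genes in small, 57.1% and 68.1% in extensive small, 53.3% and 44.1% in large and 82.7% and 73.1% in all polysomes. Together 353 members passed in at least 1 library (56.8%; 40.7% of all genes) and 180 passed in all 4 (28.99%; 20.4%). All polysomes alone added 82 members (13.2%; 3.73% of all genes), the extensive small polysomes alone added 4 (0.644%; 1.84%), and neither the small (0.065% of all genes) nor the large library (0.00722%) added any alone. Of the members called in the large fraction 38 were not called in the initial small fraction (6.12%; 2.51% of all genes), and 18 showed the reverse (2.90%; 8.68%).

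Calls followed the transcript level in giants and in all genes. None of the 199 members below 1 RPKM of mRNA was translated in any library, and of all genes below this level 0.0455% were. Of the 373 members with at least 5 RPKM, 351 were (94.1%; 87.9% of all genes at this level). The 5 members of highest mRNA level that were never called were ck (22.6 RPKM), CG42674 (15.5), RhoGAP100F (13.4), CG43689 (11.01) and RecQ4 (9.53). They did not lack footprints. The myosin VIIA ck had 10.2 RPKM in all polysomes, just under the density limit, with a coverage of 0.56. CG42674 had 29.1 RPKM there and a coverage of 0.52, and RhoGAP100F had 15.3 RPKM on a coverage of 0.35.

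Coverage, the part of a CDS under footprints, had a median of 0.406 in small, 0.393 in large, 0.702 in all and 0.562 in extensive small polysomes over the 621 members. At a like density, between the limit of the translation rule and 50 RPKM, giants and other genes were close in all and large polysomes. In both small libraries giants were somewhat lower. The medians of giants and other genes were 0.807 and 0.810 in all polysomes, 0.523 and 0.536 in large, 0.665 and 0.715 in small and 0.770 and 0.814 in extensive small polysomes. In the large polysomes, the library with the fewest reads, 137 of the 362 giants past the density limit missed the coverage limit (37.8%; 35.8% of all genes past the density limit). The share was 55 of 260 giants in the small polysomes (21.2%; 10.6% of all genes) and 6 of 247 in the extensive small polysomes (2.43%; 1.48%). In all polysomes 12 of 361 did so (3.32%; 2.18%).

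These 12 giants, among them dp, Cdep, Doa, hts and Src42A, were mostly genes with shorter isoforms. In 10 of them another annotated CDS of the same gene passed the coverage limit, and in 8 that CDS had 1500 aa or less. Src42A, a tyrosine kinase, is an example. Its giant CDS of 1597 aa had 34.8 RPKM in all polysomes and a coverage of 0.508, while its CDS of 517 aa had 111 RPKM and a coverage of 0.978. Cdep showed the same pattern, with 12.98 RPKM and a coverage of 0.32 over 4273 aa and 101.5 RPKM and 0.987 over 1163 aa. In the adducin gene hts the giant of 1833 aa had 36.0 RPKM and a coverage of 0.513, against 92.3 RPKM and 0.985 for a CDS of 718 aa. A read in a shared exon enters the value of every isoform that holds it, so for such genes the density on the longest CDS does not show which protein was made.

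For most of the other genes the giant isoforms had similar densities. 334 genes have several distinct giant CDSs and 211 also have a CDS at or under the limit. Among 240 genes with giant CDSs of different lengths and at least 1 RPKM in all polysomes on the longest, the median ratio of all-polysome RPKM on the shortest to that on the longest was 1.01, and the shortest was at least 1.5 times as dense in 9, while in 3 the longest was. The cell-surface receptor Dscam, known for its alternative exons, has 75 distinct CDSs of 1947 to 2037 aa in the table, and their all-polysome densities lay between 76.6 and 78.3 RPKM. A read in a shared exon counts for each isoform, so these like densities do not show that the isoforms were used alike.

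The 10 longest members ranged from silent to strongly translated. dp, which encodes the matrix protein dumpy and is annotated at 22949 aa, has 81 coding exons at chr2L:4479538-4574337 on the minus strand (FlyBase Release 5). Its mRNA stood at 3.55 RPKM, with 10.98 RPKM of footprints in small, 12.1 in extensive small, 25.5 in large and 15.97 in all polysomes. Footprints covered 0.455 of this CDS in all polysomes, so it was not called there. Its shortest giant CDS, of 8579 aa, was covered to 0.843 and had 32.9 RPKM in all polysomes and 7.92 RPKM of mRNA. The nesprin Msp-300, which anchors nuclei, has 13540 aa and was clearly engaged, at 19.8 RPKM in small, 20.5 in extensive small, 61.2 in large and 41.6 in all polysomes against 26.7 RPKM of mRNA. The spectraplakin shot, a linker of actin and microtubules with 8805 aa, had 36.4, 32.6, 61.4 and 39.0 RPKM in the same order and 24.5 RPKM of mRNA. spen, a nuclear RNA-binding protein of 5560 aa, had 54.2, 51.8, 134 and 98.9 RPKM with 29.8 RPKM of mRNA, and CG13185 had 10.3, 10.99, 27.9 and 32.7 RPKM with 12.6 RPKM of mRNA. In all 5 the large polysome density exceeded both small polysome densities.

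The other 5 of the longest stayed low. The titin-like sarcomere protein sls had 0.21 RPKM of mRNA and at most 1.02 RPKM of footprints, and the muscle protein bt had 0.139 RPKM of mRNA and at most 0.668 RPKM of footprints. Strn-Mlck, a muscle kinase, had 1.01 RPKM of mRNA and 1.22 RPKM in all polysomes. Ank2, an ankyrin of neurons, had no mRNA read and Muc14A had 0.144 RPKM of mRNA. At the shortest length of a giant, 3 reads amount to 0.0727 to 0.254 RPKM in the footprint libraries, and on a CDS as long as that of sls the 0.21 RPKM of mRNA stand for 53 reads.

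Translation efficiency (TE) is the footprint RPKM over the mRNA RPKM and was computed for the 422 members with an mRNA level of at least 1 RPKM. In all polysomes the median TE of giants was 1.72 (quartiles 1.34 and 2.21), against 0.985 in other genes, 1.75 times as high. In the large polysomes the medians were 1.70 and 0.89, and in the initial small polysomes 0.818 and 0.741. In the extensive small polysomes the order was the reverse, 0.785 against 0.988. A TE of at least 2 in all polysomes was found in 146 of the 422 members, or 34.6%, where 12.5% of all genes reached it. In the large polysomes 158 did so (37.4%; 11.6% of all genes), while 13 did in the small (3.08%; 7.75%) and 10 in the extensive small polysomes (2.37%; 16.6%). All TE values share the 1 mRNA column, so an error in it would move them together.

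**Figure D2:**
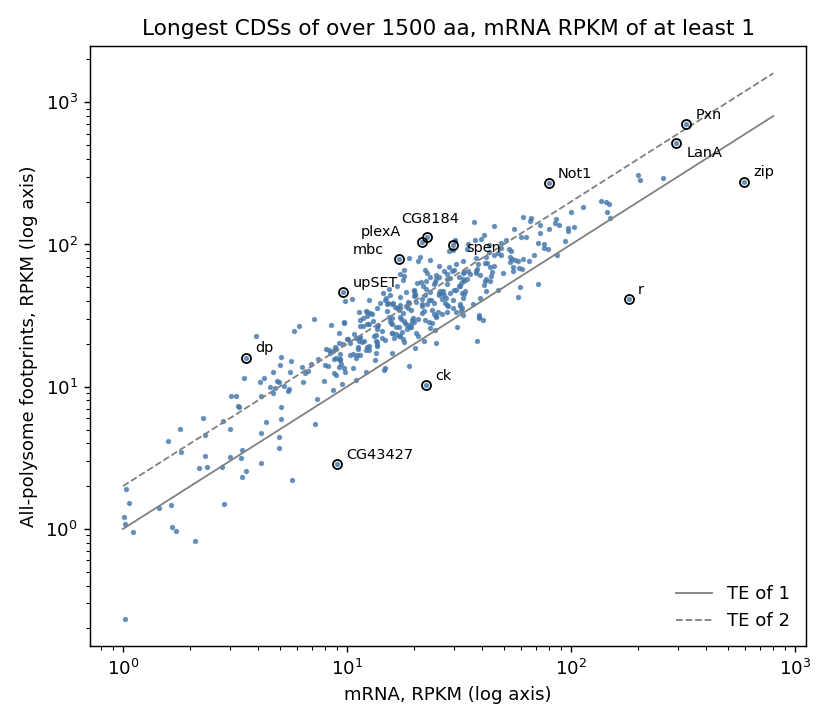
All-polysome footprints (y axis, RPKM, log scale) against mRNA (x axis, RPKM, log scale) of giant CDSs with an mRNA level of at least 1 RPKM and any footprint. Each point is 1 gene, and lines mark a TE of 1 and of 2. Most points lie above the line of TE 1, with zip, r, ck and CG43427 below it.

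The higher TE of giants was present at each mRNA level compared. At 1 to 5 RPKM of mRNA the all-polysome medians of giants and other genes were 1.43 and 0.983, at 5 to 20 RPKM 1.87 and 1.19, and at 20 to 100 RPKM 1.66 and 0.969. TE also differed by length among the giants. Its all-polysome median was 1.53 below 2000 aa, 1.75 from 2000 to below 3000 aa, 2.22 from 3000 to below 5000 aa and 2.59 in the 11 expressed members of 5000 aa or more. Genes of over 1000 and up to 1500 aa stood at 1.37, so no step appeared at the limit itself. Across the 422 giants the Spearman correlation of length and all-polysome TE was 0.28, and across 7253 genes of any length it was 0.38. Both are descriptions, since the points share the same libraries.

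**Figure D3:**
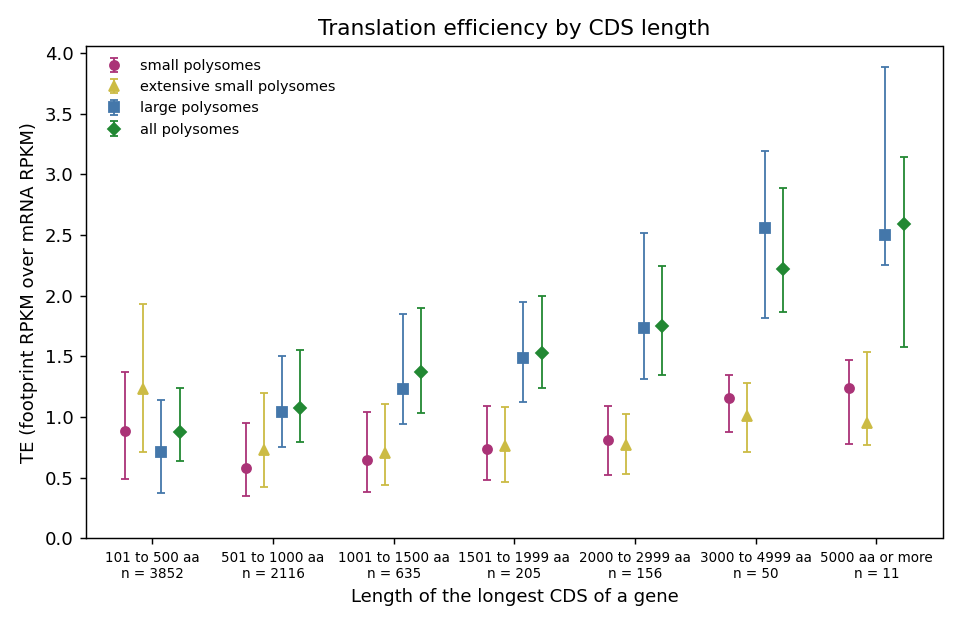
TE (y axis) by the length of the longest CDS of a gene (x axis), with the median as a marker and the quartiles as bars over the number of genes given below each class. In all polysomes the median goes from 1.37 in the last class below the limit to 2.59 at 5000 aa or more, while the medians of both small libraries lie below those of the large and all polysomes in every class above 500 aa.

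The 5 highest TE values among members with at least 5 RPKM of mRNA belonged to a ubiquitin ligase, a guidance receptor, a chromatin protein and 2 signalling regulators. CG8184, named HUWE1 by RefSeq, had a TE of 4.94, with 32.8 RPKM in small, 17.5 in extensive small, 151 in large and 112 in all polysomes against 22.7 RPKM of mRNA. plexA, a semaphorin receptor, had 16.8, 38.5, 60.8 and 105 RPKM in the same order, 21.7 RPKM of mRNA and a TE of 4.83. The chromatin protein upSET had 25.2, 20.9, 50.0 and 46.0 RPKM, 9.64 RPKM of mRNA and a TE of 4.77. The Rac activator mbc and the Ras inhibitor Nf1 followed at 4.60 and 4.36. In all 5 both small libraries lay below all polysomes. In mbc, with 36.6 RPKM in small, 50.2 in extensive small and 47.9 in large polysomes, the extensive library exceeded the large one.

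The 5 lowest TE values were r at 0.228, CG43427 (smash in RefSeq) at 0.314, CG42331 at 0.386, ck at 0.453 and zip at 0.467. The multienzyme r had 181 RPKM of mRNA but 13.2 RPKM in small, 8.99 in extensive small, 51.5 in large and 41.1 in all polysomes. Its footprints covered 0.928 of the CDS in all polysomes, so they were few but spread along the CDS. zip and ck are both myosin heavy chains, while another expressed myosin of this size, the myosin V didum, had a TE of 1.76.

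Footprints of giants were denser in large than in small polysomes. Over the 426 members with at least 50 reads in both fractions together, the median log2 ratio of large to small was 1.17 (quartiles 0.75 and 1.57), against 0.41 in 5550 other genes and 1.10 in genes of over 1000 and up to 1500 aa. The ratio was above 1 in 402 of the 426 members (94.4%; 61.9% of all genes). At least 2-fold higher density in the large fraction was seen in 255 members, or 59.9%, where 33.3% of all genes were past this fold, and at least 2-fold lower density in 3, or 0.704%, where 18.8% of all genes were. In genes of over 1000 and up to 1500 aa these shares were close to those of giants, at 93.2%, 56.8% and 0.644%. The exact counting interval of the ratio lay above equality in 383 members (89.9%; 52.1% of all genes) and below it in 8 (1.88%; 28.8%).

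The scaling matters for the absolute value. Annotated longest CDSs took 51.7% of the scaling total in the small library and 72.02% in the large. When densities were set to the reads on these CDSs, each log2 ratio of large to small fell by 0.48. The giant median was then 0.69 and that of other genes -0.07, with the same distance between them, while 130 giants were past 2-fold upward and 7 downward. The share of all genes past 2-fold was not computed at this scale, so it cannot be set beside these counts.

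The extensive small polysomes gave a second comparison that shares the large library. Against them the median log2 ratio of giants was 1.22 over 433 members and that of other genes was -0.12. Past 2-fold were 257 members upward (59.4%; 23.7% of all genes) and 11 downward (2.54%; 29.0%). Of the 426 members with a ratio, 388 were above 1 against both small libraries (91.1%; 49.8% of all genes) and 222 were at least 2-fold higher against both (52.1%; 22.2%). Another 19 were below 1 against both (4.46%; 36.7% of all genes) and 19 differed in direction (4.46%; 13.5%). The 2 small libraries themselves differed by a median log2 of -0.03 in giants and 0.40 in other genes. For 391 of 426 giants the ratio of large to small was larger in size than the difference between the small libraries (91.8%; 74.3% of all genes).

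**Figure D4:**
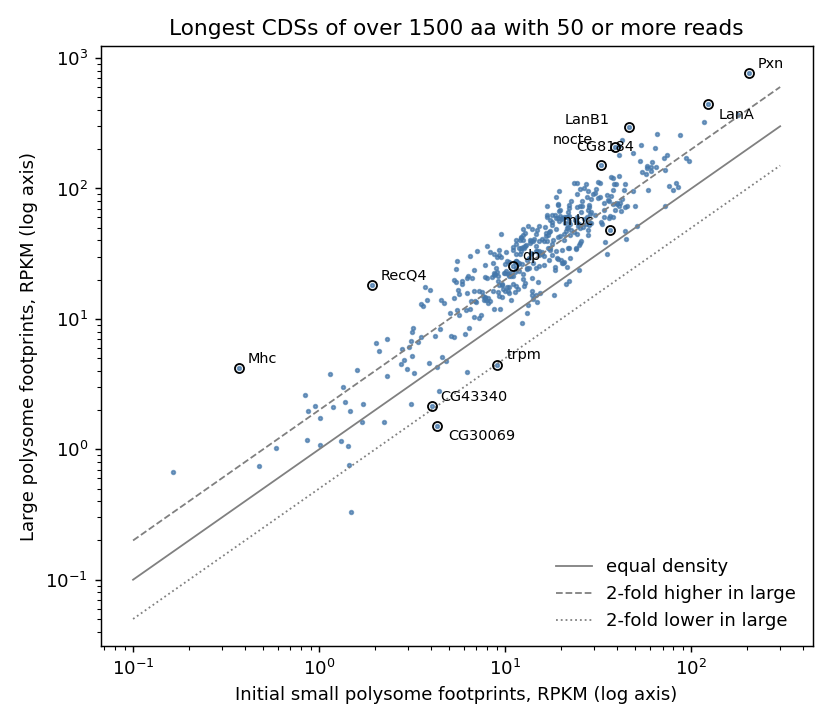
Large polysome RPKM (y axis, log scale) against initial small polysome RPKM (x axis, log scale) of giant CDSs with at least 50 reads in both fractions together. Each point is 1 gene, and lines mark equal density and a 2-fold difference. 402 of 426 members lie above the line of equal density, and CG30069, trpm and 1 unnamed point, zye, lie beyond the lower 2-fold line.

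The ratio differed with mRNA level inside the group. Its median log2 was 0.72 at 1 to 5 RPKM of mRNA (47 members), 1.02 at 5 to 20 RPKM (173) and 1.36 at 20 to 100 RPKM (186), and the same bands of other genes gave 0.32, 0.44 and 0.44. Against the extensive library the giants had 0.48, 1.07 and 1.40. With length the medians were 1.06, 1.26, 1.19 and 1.39 from the shortest to the longest of the 4 length classes, and the Spearman correlation with length was 0.17 over 426 members, compared with 0.62 over all 6115 genes with a ratio. Members translated in all polysomes had a median of 1.24 (349 members), and those not translated had 0.72 (77).

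Among members with at least 200 reads in both fractions together, the 5 highest ratios were RecQ4, LanB1, LanB2, nocte and Tig. RecQ4, a DNA helicase, had 1.92 RPKM in small, 4.12 in extensive small and 18.1 in large polysomes, a log2 ratio of 3.24 (95% exact interval 2.79 to 3.71) from 50 and 225 reads. LanB1 had 46.4, 56.7 and 295 RPKM and a log2 ratio of 2.67 (2.58 to 2.76). LanB2 had 42.3, 52.3 and 236 RPKM and 2.48 (2.38 to 2.58), so both chains were at least 4.52 times as dense in large polysomes as in either small library. nocte, a glutamine-rich protein, had 38.7, 25.8 and 208 RPKM and 2.42, and Tig had 40.8, 37.6 and 211 RPKM and 2.37. RecQ4 was the only one of these 5 that differed by over 2-fold between the small libraries.

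The 5 lowest ratios at that depth were CG30069 (Sdb in RefSeq), trpm, CG43340 (M7BP in RefSeq), CG8908 and Ppn. CG30069 had 4.31 RPKM in small, 11.4 in extensive small and 1.52 in large polysomes, a log2 ratio of -1.50 (-1.98 to -1.06). Its footprints covered 0.169 of the CDS in all polysomes. trpm, a cation channel, had 9.08, 6.02 and 4.45 RPKM and a log2 ratio of -1.03 (-1.42 to -0.65), which was -0.44 against the extensive library. CG43340 (-0.91), CG8908 (-0.67) and Ppn (-0.65), a papilin of the matrix, had coverages of 0.258, 0.228 and 0.202 in all polysomes. zye, named here because its 62 reads kept it out of this list, had 1.49, 1.64 and 0.333 RPKM and a log2 ratio of -2.16 (-3.66 to -0.94). None of these 6 was called as translated in any library.

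A few giants differed strongly between the 2 small libraries. Of 433 members compared, 20 were at least 2-fold higher (4.62%; 14% of all genes) and 4 at least 2-fold lower in the extensive library (0.924%; 0.8%). rg had 1 read in the initial and 168 in the extensive small polysomes, and the latter covered only 0.00573 of its 3722 codons' length. Caps (13 and 119 reads) and CG44085 (34 and 252) were also higher in the extensive library, with coverages there of 0.208 and 0.25. Nipped-B, which loads cohesin, had 5.46 and 15.8 RPKM on coverages of 0.347 and 0.626. In the other direction the perlecan trol had 27.9 RPKM in the initial and 10.97 in the extensive library, and the ubiquitin ligase HERC2 had 21.1 and 9.53. The ratio of large to small for HERC2 was therefore 1.53 against the initial and 2.68 against the extensive library on the log2 scale. The muscle myosin Mhc, named for its ratio, rested on 12, 1 and 65 reads in initial small, extensive small and large polysomes, and its log2 ratio was 3.50 (2.60 to 4.53) against the first and 7.83 (5.30 to 13.2) against the second.

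The giants were also grouped by function. Of all expressed giants 353 of 422 (83.6%; 77.7% of all expressed genes) were translated in at least 1 library. The lists hold 152 of the 627 members and were chosen with earlier results of these data known. All 7 nuclear pore proteins were translated in each of the 4 libraries, with a median TE of 1.12, below the 1.72 of all giants, and all 7 were at least 2-fold denser in large than in small polysomes. Nup358, the large pore protein of the cytoplasmic side, had 93.8 RPKM of mRNA and 35.0, 35.3, 89.4 and 105 RPKM in small, extensive small, large and all polysomes. Nup205, of the inner ring, had 86.6 RPKM of mRNA and 30.7, 29.4, 99.0 and 83.8 RPKM. The membrane pore protein Gp210 differed from the rest, with a log2 ratio of large to small of 1.49 against the initial and 0.52 against the extensive library.

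All 18 chromatin remodellers and histone modifiers were translated in at least 1 library, each of them in all polysomes, with a median TE of 1.87. Their log2 ratio of large to small had a median of 1.33, and 1.58 against the extensive library, with 14 of 18 past 2-fold in the first. The CHD-type remodeller kis had 45.5 RPKM of mRNA and 57.9, 43.2, 149 and 135 RPKM in small, extensive small, large and all polysomes. The related Mi-2 had more mRNA, 103 RPKM, and a lower TE, 1.29 against 2.96. osa, a subunit of the Brahma complex, had a TE of 2.31 and its ATPase brm 0.732. Nipped-A, the scaffold of acetyltransferase complexes, had the highest TE of the list, 5.80, at only 3.94 RPKM of mRNA. dom, an ATPase of histone exchange, stood out by its small polysome density of 82.6 RPKM, against 110 in large, a log2 ratio of 0.41.

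The 7 transcription giants and the 8 giants of RNA processing were likewise all translated in all polysomes, with median TE values of 1.44 and 1.48. The largest subunit of RNA polymerase II, RpII215, had 85.9 RPKM of mRNA and 151 RPKM in all polysomes, and the Mediator kinase-module subunits kto and skd had TE values of 1.60 and 2.81. In the RNA list Not1, the scaffold of the deadenylase complex, had a TE of 3.40 with 64.0, 57.6, 206 and 270 RPKM of footprints in small, extensive small, large and all polysomes. The spliceosome core protein Prp8 had a TE of 1.29, and the 2 Dicers, Dcr-1 for miRNAs and Dcr-2 for siRNAs, had 1.55 and 1.07. All 8 were at least 2-fold denser in large than in small polysomes.

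E3 ubiquitin ligases and related giants had a higher TE, with a median of 2.57 over the 9 expressed of 10 members, and all 9 were translated and past 2-fold in large polysomes. poe, a ligase of 5322 aa, had 61.1 RPKM of mRNA and 24.3, 22.8, 111 and 157 RPKM in small, extensive small, large and all polysomes. Bruce, an inhibitor of apoptosis, had a TE of 3.05, ctrip 3.47, HERC2 2.96 and the deubiquitinase faf 2.11. The exception was hiw, a ligase known from synapses, at 0.126 RPKM of mRNA.

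Of 20 motor and cortical giants 17 had values, 7 reached 1 RPKM of mRNA and 5 were translated. The cytoplasmic dynein heavy chain Dhc64C had 40.8 RPKM of mRNA, 38.0, 30.1, 120 and 116 RPKM of footprints in small, extensive small, large and all polysomes and a TE of 2.85. The axonemal dynein chains in the table stayed low, up to 0.313 RPKM of mRNA in Dhc62B. The mitotic kinesin cmet had a TE of 2.59 and the similar cana 1.73. Of 12 linkers 9 were expressed and all 9 were translated, with a median TE of 1.78. They ranged from the filamin cher at 0.734 to the dystrophin Dys at 3.98, and the talin rhea had 1.95.

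In the growth control list all 10 measured members were expressed and 8 were translated, all in all polysomes and none in the initial small polysomes. Tor, the growth-controlling kinase, had 11.4 RPKM in small, 11.7 in extensive small, 40.4 in large and 47.5 in all polysomes, a TE of 2.38. The translation initiation factor eIF4G had 16.7, 19.9, 73.2 and 73.3 RPKM and a TE of 1.91. Outside these lists, the clathrin heavy chain Chc had 143 RPKM of mRNA and 198 RPKM in all polysomes. The 7 cell cycle and repair giants were all translated in all polysomes and none in the initial small polysomes, with a median TE of 1.70.

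Matrix and surface giants were divided. Of 11 matrix members 9 reached 1 RPKM of mRNA but only 5 were translated on their longest CDS, namely LanA, LanB1, LanB2, Tig and trol. The giant CDS of dp with 8579 aa also passed the rule in all polysomes, and Pxn was not in this list. The collagen IV chains vkg and Cg25C were low, at 1.73 and 1.07 RPKM of mRNA. Of 23 cadherins, adhesion proteins and receptors 13 were expressed and 11 translated in all polysomes, but 3 in the small and 3 in the large polysomes. Their median TE was 2.26 and their median log2 ratio of large to small 1.02. kug, a Fat-like cadherin, had 12.2, 15.3, 42.0 and 56.3 RPKM in small, extensive small, large and all polysomes and a TE of 3.16, whereas the related ft had 0.0426 RPKM of mRNA. The insulin receptor InR had a TE of 4.23 and Notch, N, 2.26. Among the lipid and nucleotide giants ACC, the first enzyme of fatty acid synthesis, had a TE of 1.71, CG3523 1.13 and r 0.228.

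Giants of excitable cells were mostly silent. Of 10 ion channels 3 reached 1 RPKM of mRNA. The mechanosensitive channel Piezo had 21.2 RPKM of mRNA, 24.3, 34.8, 45.0 and 82.2 RPKM in small, extensive small, large and all polysomes and a TE of 3.88. The IP3 receptor Itp-r83A had 15.3 RPKM of mRNA and a TE of 2.55, while the related ryanodine receptor Rya-r44F had 0.0142 RPKM of mRNA. The sodium channel para and the calcium channel cac had no mRNA read. Of 4 synaptic scaffolds only unc-13 reached 1 RPKM, at 3.03, and none was translated on its longest CDS. A shorter giant CDS of unc-13, of 2711 aa, did pass the rule in all polysomes, with 20.2 RPKM and a coverage of 0.70.

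**Figure D5:**
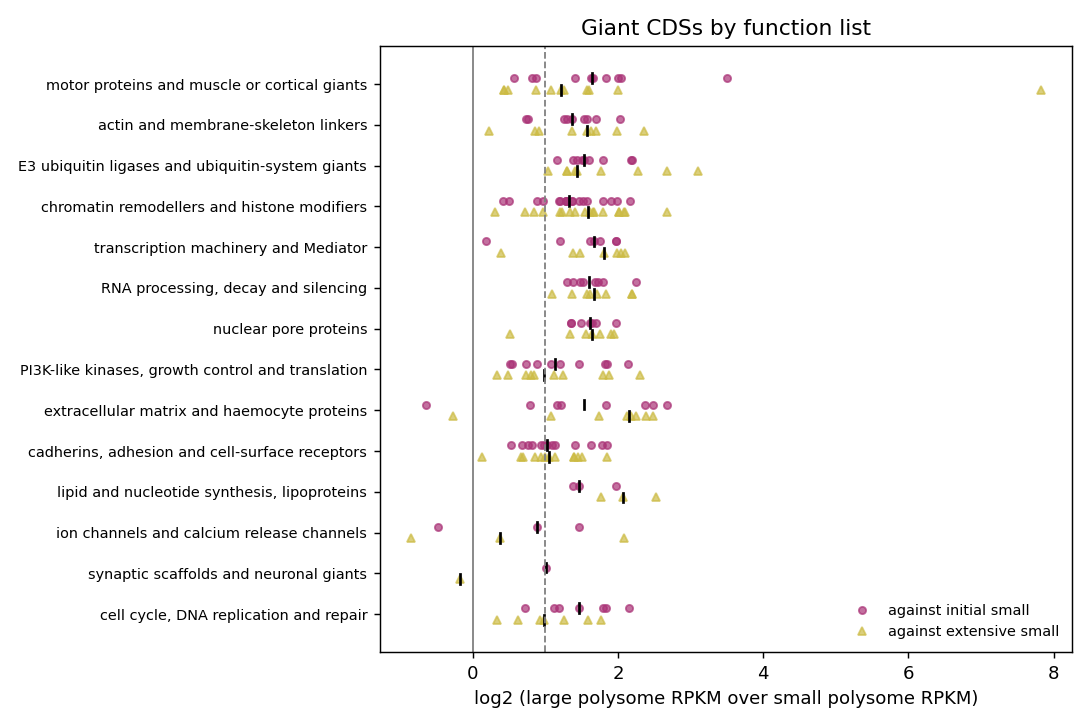
log2 ratio of large to small polysome RPKM (x axis) of the giant CDSs in each of 14 function lists (y axis), against the initial (circles) and the extensive small polysomes (triangles). Each mark is 1 gene with at least 50 reads, black ticks are medians, and the vertical lines stand at equal and 2-fold density. All nuclear pore, RNA processing and ubiquitin giants lie beyond 2-fold against the initial library, while Mhc, at 7.83, lies far out against the extensive library.

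Upstream ORFs (uORFs), short reading frames before the start of the main CDS, were more often listed for giants. Of the 422 expressed giants 263 (62.3%) had a single-exon uORF in the table, against 38.9% of expressed other genes. At least 1 uORF met the translation rule in at least 1 library in 165 giants (39.1%, Wilson interval 34.6 to 43.8) and in 18.9% of other genes. Per uORF the shares were alike, 31.3% of 1083 in giants and 32.7% of 6045 in other genes. Expressed giants also had more listed transcripts per gene, a median of 3 against 2, and the part of this in the difference was not tested. The uORF of highest density in all polysomes, of 29 aa, belonged to Pxn, with 105 RPKM in small, 393 in extensive small, 254 in large and 447 in all polysomes. An 11 aa uORF of LanA had 55.1, 69.5, 704 and 361 RPKM, and a 13 aa uORF of Piezo had 88.6, 560, 342 and 354 RPKM. Those of Pxn (50 and 313 reads) and Piezo (19 and 200) were denser in the extensive than in the initial small polysomes. The LanA uORF rested on 10 and 21 reads in these 2 libraries, and no counting interval was computed for it. It was densest in the large polysomes, from 61 reads.

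At the limit itself neighbouring genes were as varied as the rest. Just inside it, by at most 3 aa, Pkn had 16.01 RPKM of mRNA and 39.0 RPKM in all polysomes, ninaC had no read in any library, and Skeletor had no mRNA read and 0.208 RPKM in all polysomes. Just outside it, Hcf (1500 aa) had 15.7 and 53.1 RPKM, Fak (1500 aa) had 7.99 and 15.7 RPKM, and CG32333 (1499 aa) had no read.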

How the data were processed

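After clipping and trimming, the authors used Bowtie to remove rRNA and tRNA reads. TopHat then placed what was left on FlyBase Release 5.50, where unique matches with at most 2 mismatches were retained. The deposited values are RPKM per CDS or uORF, and footprint coverage as a fraction from 0 to 1. Coordinates are those of the table. Present gene names came from RefSeq and Ensembl tables of BDGP6, and no sequence was read.

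The longest CDS stood for each gene. Reads were recovered as RPKM times length times the scaling total, read from the RPKM steps. The recovered reads gave exact Clopper-Pearson intervals of ratios (95%), which cover counting error only, and shares have Wilson intervals. No p-value was computed, since the large and all polysomes have 1 library each. The 2 small polysome libraries were kept apart. TE needed an mRNA RPKM of at least 1, and ratios needed 50 reads. The scripts, in Python 3.11.15 with pandas 2.3.3 and scipy 1.17.1, were tested on simulated data.

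The members and lists were chosen with earlier results of these data known. Genes were named by rule: the 10 longest, the 10 of highest mRNA level, the 5 highest and 5 lowest ratios (at least 200 reads) and all-polysome TE (mRNA RPKM of at least 5), the 5 of highest mRNA level never translated, up to 4 per function list, and 3 on each side of the limit. Genes named beyond the rule were chosen after their values were seen, among them every further list member, zye, Mhc, rg, Caps, CG44085, HERC2, trol, Src42A, Cdep and hts. Alternatives changed the isoform, the length limit, the cut-offs, the scaling and the small polysome library. 1 function list is not reported here.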

Additional observations from a re-analysis of the deposited data

How the results depend on the processing

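Of 115 values recomputed under an alternative, 88 stayed within their interval or within 1.5 times the count, 27 moved and none changed sign. Only the log2 values could change sign, so this says nothing about the counts, coverages, mRNA levels and TE values. The median TE in small polysomes went from 0.818 to 1.25, across 1, with densities per CDS read. The coverage, length class and function list alternatives were chosen after seeing the data. With members above 0 RPKM only, the median mRNA level was 14.6 RPKM. Without a coverage limit 362 giants passed in large polysomes. A limit of over 2000 aa left fewer members, of which 110, 124, 179 and 124 were translated in small, large, all and extensive small polysomes, with median TE values of 0.902, 1.995 and 1.885 in the first 3, or 1.22, 2.24 and 1.91 times those of other genes. The median log2 ratio of large to small was then 1.265, and 0.854 above other genes. With densities per CDS read the median TE was 1.25, 1.86, 1.86 and 0.974 in small, large, all and extensive small polysomes, the median log2 ratio was 0.69, with 130 giants past 2-fold upward and 7 downward, and the median log2 of extensive over initial small polysomes was -0.33. Against the extensive library the ratio of giants lay 1.34 above that of other genes on the log2 scale, with 11 giants past 2-fold downward, and the median of the chromatin list was 1.58. With at least 200 reads giants lay 0.59 above other genes, and at a fold of 1.5 there were 7 giants downward. Shares of all genes were not computed for the counts at another scale or fold. The causes were not tested, beyond the smaller set of members and the change of scale that the alternatives themselves make. No paired analysis was possible because each group has only 1 sample.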

Other observations

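Giant CDSs were unevenly spread over the chromosomes. On the small chromosome 4 they made up 12 of 79 genes (15.2%, Wilson interval 8.91 to 24.7), and on the X chromosome 134 of 2167 (6.18%, 5.25 to 7.28). The shares on the arms 2L, 2R, 3L and 3R were 3.85%, 3.94%, 4.60% and 4.01%. On the heterochromatic scaffolds, whose giants have no values, the counts were small, with 3 of 7 genes on YHet (42.9%, 15.8 to 74.95) and 2 of 19 on 3LHet (10.5%, 2.94 to 31.4). On chromosome 4, 7 of the 12 reached 1 RPKM of mRNA, among them plexA. The median log2 ratio of large to small polysomes was 1.37 there and 1.25 on X, and 1.07 to 1.18 on the other arms. The median genomic span of a giant CDS was 10.3 kb, against 1.57 kb for other genes.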
